A study of Mus musculus with 8 samples.

Results

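The leading end of the mouse nephric duct was followed over 4 arrays in order of embryonic day (E). They were Hoxb7-GFP-positive cells of E8.75, of the caudal part of the duct at E9.5 and at E10.5, and of the ureteric bud (UB) at E11.5. These 4 of the 8 arrays were chosen by stage and position alone. The 2 rostral duct arrays of E9.5 and E10.5 were left out of the series and used only for comparison, and the remaining arrays held Wt1-GFP-positive mesoderm. The embryos of the Hoxb7-GFP arrays were of the ICR strain and carried that transgene. In it, the Hoxb7 promoter drives green fluorescent protein in the duct and its derivatives. Cells were isolated by flow cytometry, and the caudal, rostral and bud samples are labelled as Flk1-negative. The label of the E8.75 sample does not name that gate, although the series design gives it for the population as a whole, and its source is named only as the embryo. Each stage had 1 array made from 10 ng of total RNA, and the labels do not state how many embryos were pooled for it. A difference between stages therefore has no replicate check.

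The nephric duct, also called the Wolffian duct, forms from intermediate mesoderm, becomes an epithelial tube and extends caudally towards the cloaca. Its caudal end answers GDNF from the neighbouring metanephric mesenchyme through the receptor Ret and its partner Gfra1, and grows out as the ureteric bud, whose branches become the collecting ducts. Pax2, Pax8, Lhx1 and Gata3 are transcription factors needed to make or keep the duct. Hox genes, numbered by group from the front to the back of the body, carry positional information along the trunk. The E8.75 sample is labelled only as Hoxb7-GFP-positive, with no caudal part named.

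Levels are log2 intensities less that of the array's own 75th percentile, so a level of 0 is that percentile. A probe not well above background has only a bound, and folds that rest on one are given as "at least". The 75th percentile signal lay between 265 and 317 on the 4 arrays, 61.5% to 67.3% of probes were well above background, and none was saturated. The share was lowest on the E10.5 caudal array. The arrays correlated with each other at r = 0.93 to 0.96 across probes, and probes spotted more than 1 time on an array had a median SD of 0.07 to 0.09. All arrays lay on 1 slide. The E8.75 and E9.5 caudal arrays were in its first row and the E10.5 caudal and E11.5 arrays in its second, so the middle step also crosses rows, and row and stage cannot be told apart there. The E10.5 rostral array lay in the first row with both E9.5 duct arrays, so the caudal and rostral arrays of E10.5 also differ in row, and row and position cannot be told apart between them.

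Genes were sorted by the shape of their profile. A steady rise needed each of the 3 steps to be at least 0.5 upwards and the whole change at least 2 (log2), and a steady fall the same downwards. A transient peak or dip needed an inner array, E9.5 or E10.5 caudal, to lie at least 1 beyond both ends. Of 28137 genes, 147 (0.522%) had a steady rise and 87 (0.309%) a steady fall. A peak was found for 715 genes (2.54%) at E9.5 and for 1095 (3.89%) at E10.5. A dip was found for 428 (1.52%) at E9.5 and for 506 (1.8%) at E10.5. Peaks came to 1810 (6.43%) and dips to 934 (3.32%), and 10 genes (0.0355%) had both and were counted in neither. Another 15792 genes (56.1%) stayed within 2-fold over the 4 arrays, and 9357 (33.3%) had some other shape. These shapes are descriptions of 4 single arrays, with no test.

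The shapes differed in brightness. Of the steady rises 64.6% reached a level of 0 on some array, as did 74.7% of the steady falls and 61.1% of the dips at E10.5. For peaks at E10.5 that share was 16.7%, for peaks at E9.5 20.4%, and over all genes 43.7%. Most transient peaks thus lay in dim probes, and at E10.5 they lay on the array with the highest detection limit.

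Large changes were mostly not steady. Between E8.75 and E11.5, 1328 genes (4.72%) were at least 4-fold higher at the end and 875 (3.11%) at least 4-fold lower. Among those higher at the end without a steady rise, peak or dip, the largest of the 3 steps was the first for 543, the second for 126 and the third for 462. Among those lower at the end it was the first for 464, the second for 109 and the third for 150. By step, 2755 genes (9.79%) were at least 2-fold higher and 2540 (9.03%) lower at E9.5 than at E8.75. From E9.5 to E10.5 the counts were 2292 (8.15%) and 1280 (4.55%), and from E10.5 to E11.5 they were 2174 (7.73%) and 2393 (8.5%). The median change over all genes was -0.05, 0.03 and 0.00 in the 3 steps.

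A straight line over embryonic day was the one test that 4 single arrays allow. By limma with Benjamini-Hochberg adjustment it called 0 of 28137 genes higher and 0 lower (0.0% each), and the lowest adjusted p was 0.34. At an unadjusted p under 0.05 there were 1651 genes with an upward slope (5.87%) and 1102 with a downward slope (3.92%). The spread in this test is the departure from a line and not that between animals. With the slide row as a block, those counts were 509 and 565.

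**Figure D1:**
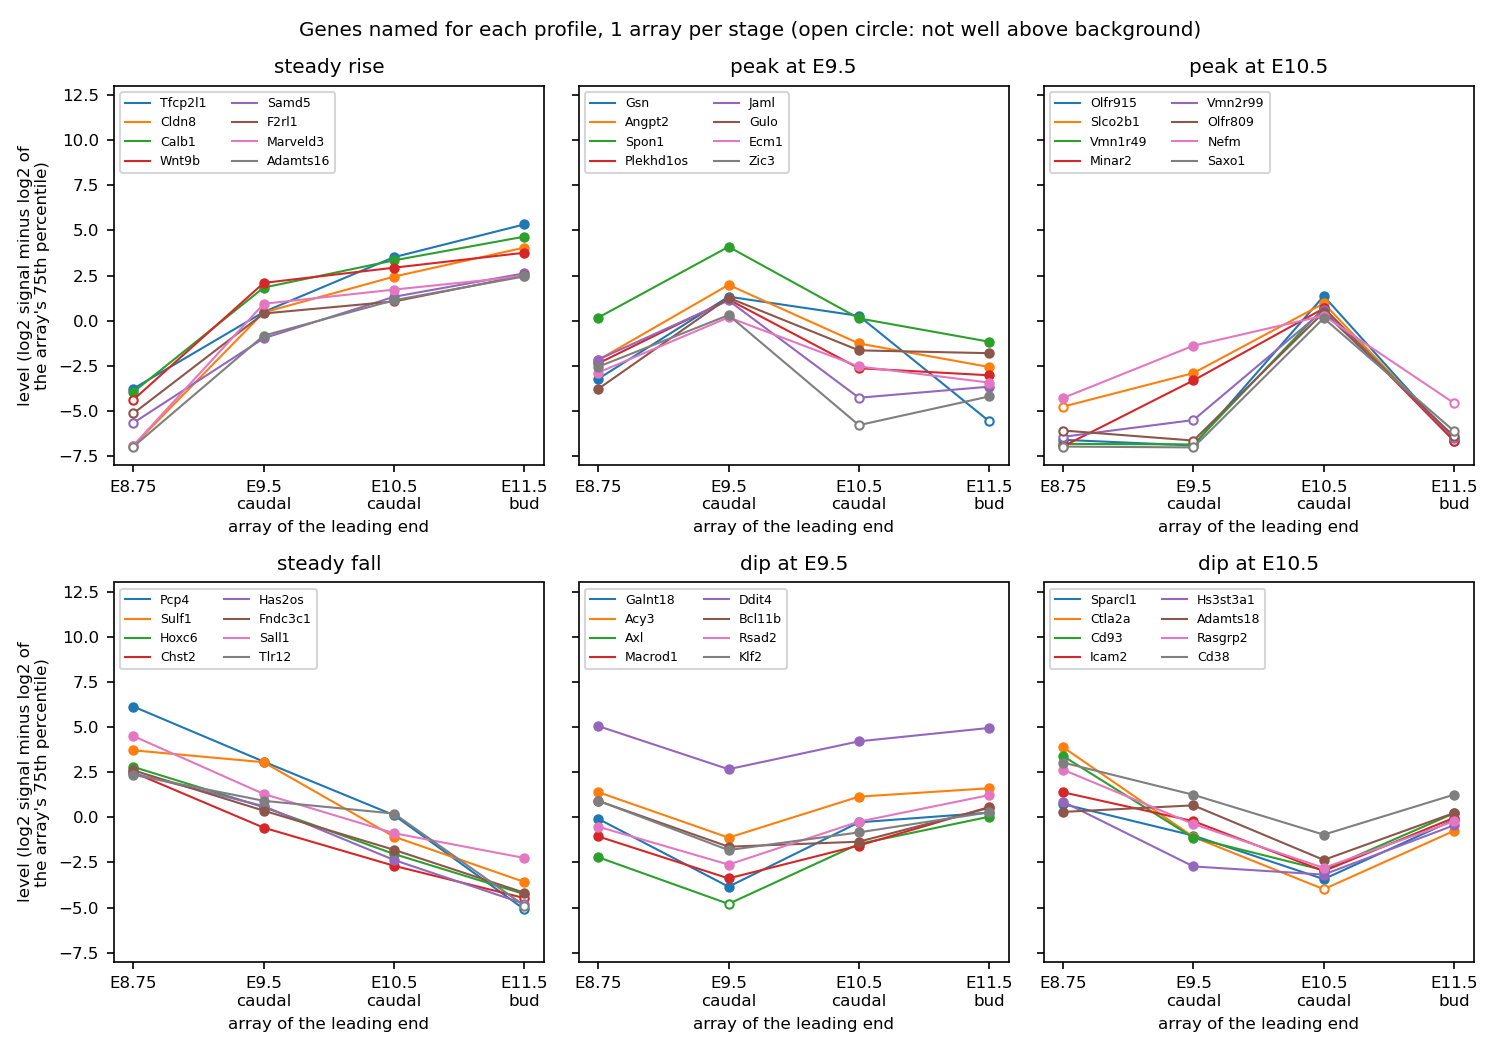
Level (log2, 0 at the 75th percentile) of the named genes of each profile class on the 4 arrays in order of stage, 1 line per gene, with no replicates and open circles where a probe was not well above background. The steady rises shown begin at or near the detection limit and end above 0, and most E10.5 peaks stand on 1 array only, as for Olfr915 at 1.37 there and below background on the other 3.

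The steady rises included regulators and products of the duct epithelium. Tfcp2l1, a grainyhead-family transcription factor of the collecting duct, had levels of -3.76 at E8.75, 0.49 at E9.5, 3.52 at E10.5 and 5.33 at E11.5. Each step was upward, and the whole change was 548-fold, for the brightest probe, which stands for each gene here. Its second probe changed by 5.39 (log2) in the same direction. Calb1, the calcium-binding protein calbindin of duct and collecting duct, had levels of -3.95, 1.83, 3.34 and 4.66 in the same order. Most of its 389-fold difference lay in the first step, and its second probe changed by 4.09 (log2) over the whole range. Wnt9b, the duct-derived Wnt ligand that induces nephron formation, was not well above background at E8.75 and had levels of 2.10, 2.94 and 3.77 on the later arrays. Its level at E11.5 was at least 282-fold that at E8.75. The slopes of Tfcp2l1 and Calb1 were 3.23 ± 0.41 and 2.86 ± 0.67 log2 per day (SE), with adjusted p of 0.34 and 0.38 in limma.

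Genes of tight junctions and of epithelial adhesion were also among the steady rises. Cldn8, a claudin of collecting duct tight junctions, was below the detection limit at E8.75 and had levels of 0.46, 2.44 and 4.05 afterwards. That is at least 415.6-fold. Marveld3, a tight junction membrane protein, followed with 0.94, 1.72 and 2.47 after a first array not well above background (at least 139-fold). Its second probe changed by only 0.54 (log2) in the same direction. Cdh16, the kidney-specific cadherin, had levels of -3.12, -1.21, 1.83 and 3.27, an 84.0-fold difference whose largest step was the middle one. F2rl1, a protease-activated receptor, Adamts16, a secreted metalloprotease, and Samd5 were also among the 8 largest, with whole changes of at least 143-fold, at least 137-fold and at least 7.27 (log2). The second probe of Adamts16 changed by 2.98 (log2).

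The promoter sequence of the rising genes was searched for the E-box CAGGTG, the motif that the Snail and Zeb repressors of epithelial genes bind. The window was the 250 bases before the RefSeq start on GRCm38.p6, both strands, and a promoter was matched for 13965 genes. At least 1 copy was found for 25 of 89 steady rises (28.1%), for 6 of 57 steady falls and for 2273 of all 13965 promoters (16.3%). The share was 22.3% for peaks at E9.5 and 19.1% for peaks at E10.5. For dips at E9.5 it was 19.3%, and for dips at E10.5 12.3%. Among the named or listed genes with a promoter, leaving out those on 1 chromosome, 4 of 12 steady rises and 0 of 12 steady falls held it. Those 4 are shown because they let the motif be read in place. They lie at chr1:118627695-118627944 (forward strand), chr11:103749822-103750071 (reverse), chr5:12382916-12383165 (forward) and chr1:135258473-135258722 (reverse), and capitals mark CAGGTG or its reverse complement CACCTG.
Tfcp2l1: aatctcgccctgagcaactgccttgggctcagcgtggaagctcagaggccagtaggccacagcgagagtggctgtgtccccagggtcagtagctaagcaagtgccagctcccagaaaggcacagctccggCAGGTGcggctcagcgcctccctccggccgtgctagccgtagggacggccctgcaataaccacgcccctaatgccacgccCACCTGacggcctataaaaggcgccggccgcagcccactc
Wnt9b: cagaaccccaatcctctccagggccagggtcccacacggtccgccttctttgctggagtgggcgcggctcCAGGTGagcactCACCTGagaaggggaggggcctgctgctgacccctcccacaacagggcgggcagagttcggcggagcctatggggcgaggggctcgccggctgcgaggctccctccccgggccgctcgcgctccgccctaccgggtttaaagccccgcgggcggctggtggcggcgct
Sema3d: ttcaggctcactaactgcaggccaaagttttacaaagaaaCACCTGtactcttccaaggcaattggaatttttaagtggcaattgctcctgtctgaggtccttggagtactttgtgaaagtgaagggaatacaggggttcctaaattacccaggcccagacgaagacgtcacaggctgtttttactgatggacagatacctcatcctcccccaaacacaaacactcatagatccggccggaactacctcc
Elf3: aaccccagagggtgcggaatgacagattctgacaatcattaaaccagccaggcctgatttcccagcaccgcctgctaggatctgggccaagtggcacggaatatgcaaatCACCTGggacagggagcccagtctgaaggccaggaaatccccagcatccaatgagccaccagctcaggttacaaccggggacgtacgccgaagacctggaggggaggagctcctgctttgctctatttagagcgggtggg
Tfcp2l1 and Wnt9b held 2 copies each, at 120 and 40 bases and at 180 and 168 bases before the start. A match is a description of the letters, not a bound site. The grainyhead motif AACCNGTT was in only 3 of 89 steady-rise promoters (3.37%), against 1.67% of all. The AP-2 motif GCCNNNGGC was in 20.2% against 18.5%, and in 26.3% of steady-fall promoters. For steady rises against all, the GATA motif AGATAA was in 6.74% against 7.35%, and the ETS motif ACAGGAAG in 2.25% against 2.46%.

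The array also carried probes for long intergenic noncoding RNAs, placed on mm9 by their names. Of 4219 measured, 15 (0.356%) had a steady rise and 7 (0.166%) a steady fall. Both shares were below those of all genes, 0.522% and 0.309%. Those whose highest level was at least 0, up to 3 in each direction by size of change, are shown by their probe sequence. They have no gene symbol, and the chromosome left out of the named promoters was also left out of those shown here. lincRNA 1 lay at chr16:4871449-4874336 on the reverse strand, lincRNA 2 and lincRNA 3 at chrX:135880775-135891525 and chrX:135882029-135892277 on the reverse strand, and lincRNA 4 at chr8:91569369-91594119 on the forward strand.
lincRNA 1: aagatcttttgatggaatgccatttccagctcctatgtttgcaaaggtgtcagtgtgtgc
lincRNA 2: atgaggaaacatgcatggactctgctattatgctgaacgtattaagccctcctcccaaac
lincRNA 3: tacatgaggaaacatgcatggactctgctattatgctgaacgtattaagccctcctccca
lincRNA 4: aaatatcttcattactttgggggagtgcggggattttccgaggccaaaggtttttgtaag
lincRNA 1 was not well above background at E8.75 and had levels of -1.84, -0.71 and 1.84 on the later arrays, at least 89.9-fold higher at the end. lincRNA 2 and lincRNA 3 overlap on the X chromosome, and their probes start 3 bases apart, so they are 1 measurement and not 2. They were at least 45.2- and 42.2-fold higher at E11.5 than at E8.75. lincRNA 4 had levels of 0.86, -0.24, -2.44 and -3.34 and was 18.4-fold lower at the end.

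All 25 genes of the epithelial junction and polarity list were higher at E11.5 than at E8.75, 23 of them by at least 4-fold (4.72% of all genes), with a median change of 3.84 against -0.01 over all genes. In the first step 22 of the 25 were at least 2-fold higher and none lower (9.79% and 9.03% of all genes). In the second step 7 were higher (8.15%) and in the third 5 (7.73%), again with none lower (4.55% and 8.5%). Thus 5 were steady rises (Cldn8, Marveld3, Cdh16, Cldn3 and Ocln), against 0.522% of all genes. Most of the others took their difference in the first step. Epcam, the epithelial adhesion molecule, had levels of -0.84, 4.44, 4.84 and 4.85. Esrp1, the splicing factor of the epithelial isoform programme, had levels of -2.76, 4.08, 4.09 and 3.92, so it was 115-fold higher at E9.5 and nearly level after that. Mal2, a protein of apical transport, had levels of -3.14, 3.37, 3.44 and 4.37. Cdh1, the epithelial cadherin, was not well above background at E8.75 and had levels of only -2.39, -1.04 and -1.07 afterwards.

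Mesenchymal genes mostly went the other way until E10.5. Of 19 measured, 8 were at least 2-fold lower and 4 higher in the first step (9.03% and 9.79% of all genes). In the second step 10 were lower and none higher (4.55% and 8.15%), and in the third 2 lower and 1 higher (8.5% and 7.73%). Vim, the mesenchymal intermediate filament, had levels of 5.08, 2.43, 0.29 and 0.95. Zeb1, a repressor of epithelial genes, had levels of 3.43, 0.30, -2.08 and -1.78, 37.0-fold lower at the end. Its relative Zeb2 had levels of 1.32, -2.64, -3.47 and -3.41, although the probe of it that moved least changed by only -0.14. None of these passed the adjusted line test. The rostral duct, on separate arrays, also had lower Vim and Zeb1 at E10.5 than at E9.5, by 9.15- and 21.3-fold.

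Markers of some other cell types also changed over the 4 arrays. Of 17 endothelial markers, 16 were at least 2-fold lower at E9.5 than at E8.75 (9.03% of all genes). Their summed signal (in units of the 75th percentile) was 88.1, 16.6, 9.25 and 11.1 over the 4 arrays. Kdr, which encodes Flk1, the marker gated out of the later samples, had levels of 4.12, 1.84, 1.70 and 1.47. The endoderm list had summed signals of 10.6, 3.74, 1.61 and 2.20, and Afp, Ttr and Apoa1 were well above background at E8.75 only. The coelomic and lateral plate list summed to 10.3, 3.07 and 2.71 on the first 3 arrays, the somite list to 12.9, 4.83, 3.43 and 3.15, and the heart list to 5.39, 2.23, 2.81 and 2.47. The neural crest list, which shares Tfap2a with the duct factors, summed to 22.6, 25.5, 22.3 and 12.1. Surface ectoderm is also epithelial. Of its 9 markers, 4 were at least 2-fold higher and 0 lower in the first step (9.79% and 9.03% of all genes). At the end 3 were at least 4-fold higher (4.72% of all genes). The median whole change of the 9 was 1.56. They summed to 70.2, 86.5, 88.2 and 72.8, while their median levels were -2.42, -1.48, -0.85 and -0.60. A minority of bright probes thus carried the sum. The Trp63 probe was bright and flat on every array and may not measure that gene. The list also holds Wnt6, which is described with the Wnt genes. The mesenchymal list itself summed to 141, 59.9, 30.2 and 33.2. Since these samples are bulk RNA, fewer cells of a type and less RNA per cell cannot be told apart, and the part of the other cells in the first step was not tested. Wt1, a factor of the nephrogenic mesenchyme and coelomic lining, was not well above background at E8.75 and E10.5 and had levels of -1.94 at E9.5 and -3.94 at E11.5.

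**Figure D2:**
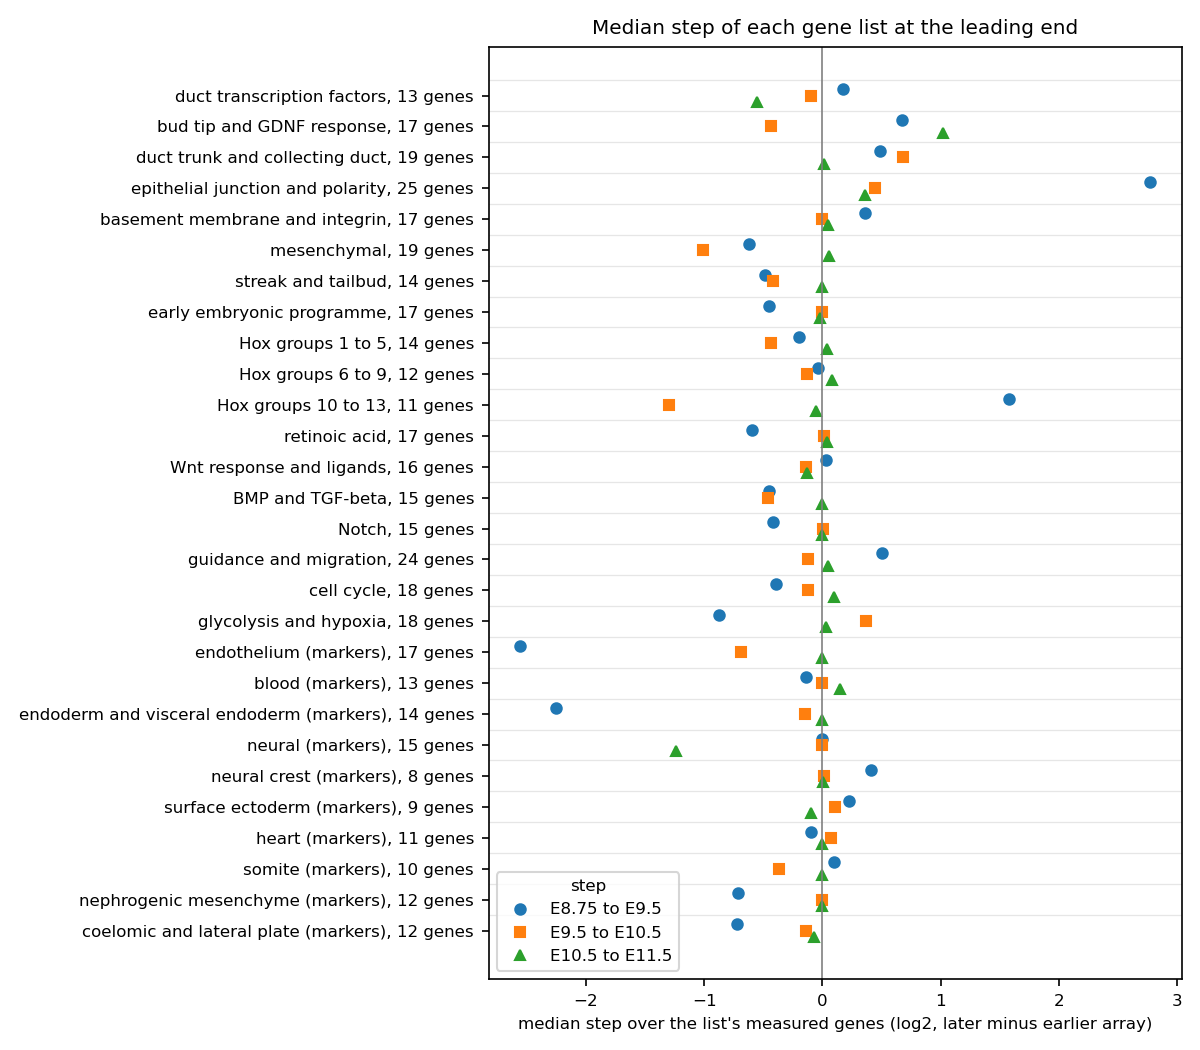
Median change (log2, later minus earlier array) over the measured genes of each list in each of the 3 steps, 1 symbol per step; the median over all genes is -0.05, 0.03 and 0.00. In the first step the epithelial list lies farthest right, at 2.77, and the endothelial and endoderm markers farthest left, at -2.56 and -2.25.

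The duct transcription factors split by shape. Gata3, a zinc finger factor needed for duct guidance, was nearly level at 2.85, 3.00, 3.04 and 3.00. Emx2 and Sim1 also stayed within 2-fold. Pax2, with levels of 5.69, 5.36, 4.92 and 4.20, was lower at each stage than at the one before, but 1 of its 3 probes did not move the same way. Lhx1, a LIM homeodomain factor of early intermediate mesoderm, had a steady fall with levels of 4.51, 3.69, 2.70 and 2.15 (5.14-fold). Pax8 had levels of 2.35, 0.03, 0.35 and -0.63, lower mostly in the first step. Tfap2b, an AP-2 factor of the distal nephron and duct, was not detected above background at E8.75 and had levels of 3.51, 3.21 and 4.71 later, at least 655-fold higher at E11.5. Of the 13 factors, 3 were at least 2-fold higher and 3 lower in the first step (9.79% and 9.03% of all genes). Hoxb7, whose promoter drives the transgene, had levels of 1.64, 2.30, 3.17 and 3.28 and was thus measured on all 4 arrays.

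Ret, the GDNF receptor, was level along the leading end, at 2.12, 2.23, 1.79 and 2.15. The rostral duct had -0.66 at E9.5 and -0.20 at E10.5, so the caudal arrays were 7.43- and 3.97-fold higher. Gfra1, the co-receptor, had levels of 1.04, 1.71, 1.40 and 2.02 and was 3.23- and 4.12-fold higher in caudal than in rostral duct. Both receptors stayed within 2-fold over time and were higher in caudal than in rostral duct on both days.

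Genes of the bud tip and of the GDNF response were mostly higher in the bud than in the caudal duct of E10.5. Of 17 members, 5 were at least 2-fold higher and 2 lower in the first step (9.79% and 9.03% of all genes). In the second step 3 were lower and none higher (4.55% and 8.15%), and in the third 9 higher and none lower (7.73% and 8.5%). The medians of the 3 steps were 0.67, -0.44 and 1.02. Etv4, an ETS factor downstream of Ret, had levels of 4.73, 4.25, 3.64 and 4.80 for its brighter probe, while its other probe did not share the shape. Etv5, its relative, had levels of 4.30, 4.19, 3.40 and 4.73. Wnt11, the Wnt ligand of ureteric tips, had levels of 0.02, 0.73, -0.71 and 0.95, and was 3.16-fold higher at E11.5 than at E10.5. Spry1, a feedback inhibitor of receptor tyrosine kinase signalling, had levels of 0.80, 2.49, 1.60 and 3.22. For the probes given, each of these 4 was lower at E10.5 than on the arrays beside it. Etv5, Wnt11 and Spry1 were highest in the bud, while Etv4 there (4.80) was nearly level with E8.75 (4.73).

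Sox8 was the 1 steady rise among the 17 genes (0.522% of all genes), with levels of -2.21, -1.21, -0.71 and 0.60. Its middle step of 0.50 only just reached the limit. Sox9, which with Sox8 acts downstream of Ret in bud branching, had levels of 2.50, 1.43, 2.20 and 3.62 and so dipped at E9.5. Cxcr4, a chemokine receptor, was instead highest at the start, with 6.12, 5.73, 4.49 and 4.90. Caudal duct was at least 2-fold above rostral duct for 11 of the 17 genes at E9.5 (5.13% of all genes) and for 8 of 17 at E10.5 (7.34% of all genes). None was 2-fold lower at E9.5 (6.89% of all genes) or at E10.5 (4.15%).

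**Figure D3:**
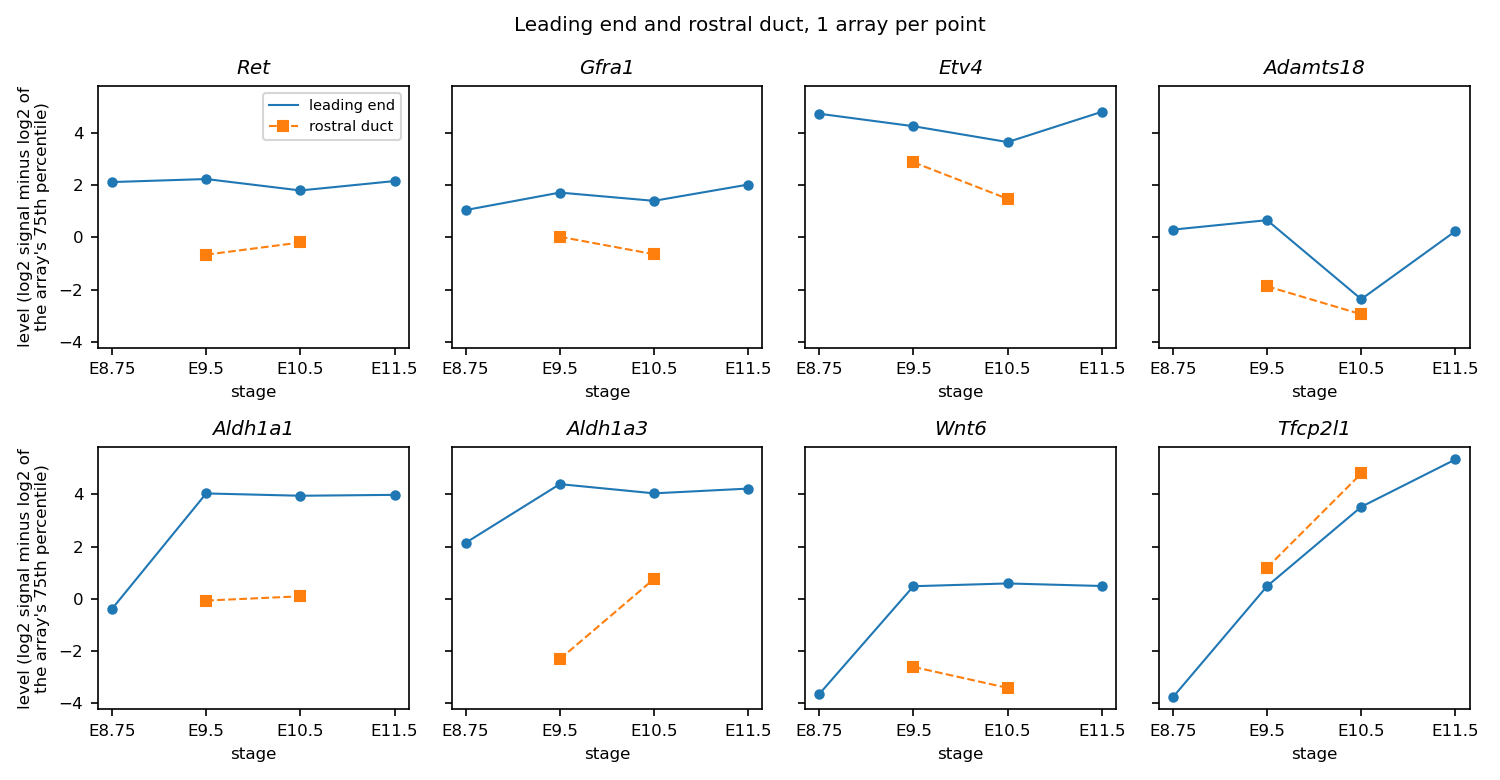
Level (log2, 0 at the 75th percentile) of 8 genes on the 4 leading-end arrays (circles, solid line) and on the rostral duct arrays of E9.5 and E10.5 (squares, dashed line), 1 array per point. Ret stays between 1.79 and 2.23 along the leading end and lies at -0.66 and -0.20 in rostral duct.

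Of 19 measured genes of the trunk and collecting duct, 8, 7 and 4 were at least 2-fold higher in the 3 steps in turn. For all genes the shares were 9.79%, 8.15% and 7.73%. In each step 1 of the 19 was lower (9.03%, 4.55% and 8.5% of all genes). Among the 19 genes, 3 were steady rises, against 0.522% of all genes (Wnt9b, Calb1 and Elf3, an epithelial ETS factor). At E11.5, 9 were at least 4-fold higher than at E8.75 (4.72% of all genes), and none was 4-fold lower (3.11%). Krt8, a simple-epithelium keratin, had levels of -1.23, 1.94, 3.51 and 3.72. Wnt7b, the ligand of the collecting duct trunk, had levels of -3.17, -1.26, -2.09 and 0.69, and Shh, expressed in ureter epithelium, had -3.49, -1.52, -2.79 and 0.12. Both were thus highest in the bud, by 6.84- and 7.50-fold over E10.5. Ehf, an epithelial ETS factor, had levels of -3.20, -3.06, -1.87 and 0.46, and its second probe changed by 1.33 (log2). Of 17 basement membrane and integrin genes, 7 stayed within 2-fold (56.1% of all genes). In the first step 7 were at least 2-fold higher and 2 lower (9.79% and 9.03% of all genes).

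The steady falls included regulators of the early embryo and the trunk. Pcp4, a calmodulin-binding peptide, had levels of 6.13, 3.08 and 0.11 and was not well above background at E11.5. It was at least 1448-fold lower there. Sulf1, a sulfatase that edits heparan sulfate, had levels of 3.71, 3.05, -1.08 and -3.59, with its largest step from E9.5 to E10.5. Sall1, a zinc finger factor of kidney mesenchyme, had levels of 4.50, 1.29, -0.88 and -2.26, 108-fold lower in the bud. Chst2, Fndc3c1, Has2os and Tlr12 were the others of the 8 largest with Hoxc6, which is described with the Hox genes. Lin28a, an RNA-binding protein that blocks let-7 maturation, had levels of 4.14, 2.20, 1.29 and -1.11, a 37.9-fold difference. Its paralog Lin28b had levels of 3.03, 2.12, 1.24 and 0.39. Trim71, a let-7 target, was 4.51-fold lower at the end, while Dnmt3a, a DNA methyltransferase, was 4.55-fold higher. Of the 17 early-embryo genes measured, 8 stayed within 2-fold, against 56.1% of all genes. Among those 8, Nanog read 8.36 to 8.53 on every array, a bright flat signal that was not taken as the level of the gene.

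The posterior Hox genes peaked at E9.5. Of 11 measured genes of groups 10 to 13, 7 had a peak at E9.5 (2.54% of all genes). A peak at E10.5 was found for 1, Hoxa13 (3.89% of all genes). Hoxd11 had levels of 0.78, -1.87 and -0.84 at E9.5, E10.5 and E11.5 and was not well above background at E8.75. Hoxc10 had levels of 1.28, 2.85, 0.63 and -3.58, so it was 28.9-fold lower in the bud than at E8.75. Hoxa10 had levels of -1.37, 0.05, -1.92 and -2.21. Hoxd13, with -3.67, -0.27 and -3.48 at E8.75, E9.5 and E11.5, was not well above background at E10.5. The same E9.5 caudal array was 37.8-fold above E9.5 rostral duct for Hoxc10, 28.3-fold for Hoxd11 and 10.9-fold for Hoxd13. Some genes of limb, somite and stromal mesoderm also peaked on that array. Pax9 and Meox2 (2 of 10 somite markers), and Prrx1, Snai2 and Foxd1 (3 of 19 mesenchymal genes) had this shape (2.54% of all genes). The other members did not. Of the 10 somite markers 6 stayed within 2-fold (56.1% of all genes). Of the 19 mesenchymal genes 8 were at least 2-fold lower in the first step (9.03% of all genes). The summed signals of both lists were lower at E9.5 than at E8.75. The part of these peaking genes in the Hox peak was not tested.

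The anterior and middle Hox genes had no common shape. Hoxd9 was a steady rise with levels of 1.89, 4.34, 4.91 and 6.13, 18.9-fold higher at the end. Hoxd8, its neighbour in the cluster, had levels of -0.65, 2.38, 2.18 and 2.75. Hoxc6 was a steady fall with 2.79, 0.56, -2.04 and -4.26, 132-fold lower at the end, and Hoxa5 a steady fall with 1.32, -0.14, -1.29 and -1.83. At E10.5 the caudal duct had 7.67-fold less Hoxc6 than the rostral duct. Members of the HoxB cluster from Hoxb3 to Hoxb6, and Hoxb8, stayed within 2-fold.

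**Figure D4:**
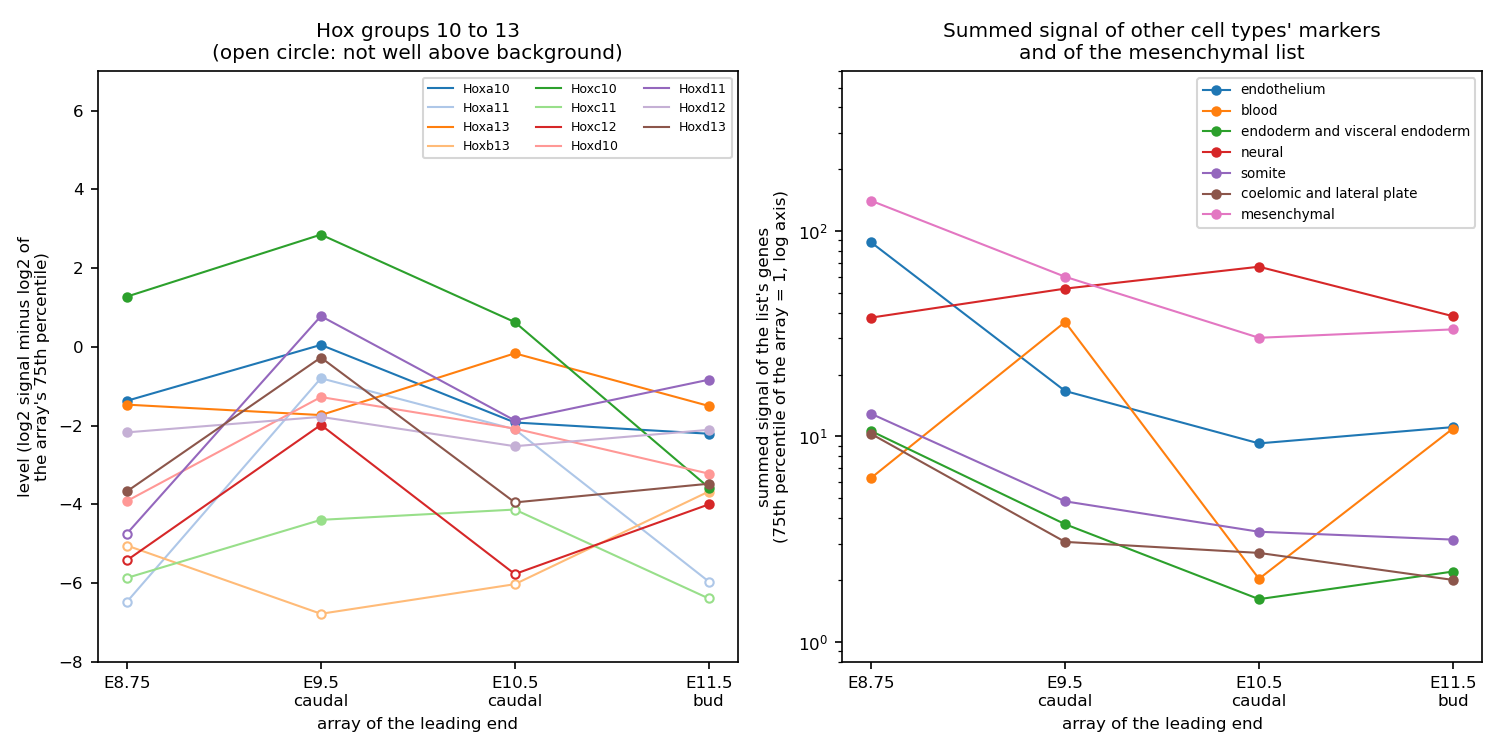
Left, levels (log2, 0 at the 75th percentile) of the 11 measured Hox genes of groups 10 to 13 on the 4 arrays, open circles where not well above background; right, summed signal of the mesenchymal list and of marker lists of other cell types, in units of the 75th percentile, on a log axis. Of the Hox genes, 7 peak at E9.5, the endothelial sum is highest at E8.75 (88.1) and the blood sum at E9.5 (36.1).

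Several retinoic acid and Wnt genes differed in the first step and were nearly level afterwards. In that step 3 of 17 retinoic acid genes were at least 2-fold higher and 6 lower, and 5 of 16 Wnt genes were higher and 3 lower. Of all genes, 9.79% were higher and 9.03% lower. In the second step 3 retinoic acid genes were higher and 1 lower (8.15% and 4.55% of all genes). In the third 4 were higher and 3 lower (7.73% and 8.5%), so the list as a whole was not level. For the Wnt genes 1 was higher and 2 lower in the second step, and 0 and 1 in the third. Aldh1a1, a retinaldehyde dehydrogenase that makes retinoic acid, had levels of -0.38, 4.03, 3.94 and 3.98. Rostral duct had -0.07 and 0.10, so caudal duct was 17.1- and 14.4-fold higher. Aldh1a3, its relative, had levels of 2.14, 4.39, 4.04 and 4.22 and was 104- and 9.68-fold above rostral duct. Aldh1a2, the enzyme of the paraxial and lateral mesoderm, went the other way, with 1.30 and -1.22 and then no signal well above background. Dhrs3 and Cyp26b1, which reduce and degrade retinoids, were highest in the bud, 8.53- and 5.57-fold above the E10.5 caudal duct. Wnt6 had levels of -3.64, 0.48, 0.59 and 0.49 and was 8.50- and 16.0-fold above rostral duct. Axin2, a general target of Wnt signalling, stayed within 2-fold, at 0.96, 0.99, 1.13 and 0.89. Bmp4, a ligand that restrains budding, had levels of 2.71, 2.94, -0.19 and -2.29 for its brighter probe, while the other probe hardly moved.

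Genes of the primitive streak and tailbud were low or became lower. Of 14 measured, 5 were at least 4-fold lower at E11.5 than at E8.75 and none was 4-fold higher (3.11% and 4.72% of all genes). Cdx2, a caudal homeobox factor, had levels of 0.56 and -3.03 at E8.75 and E9.5 and was not well above background later. Of 15 BMP and TGF-beta genes, 5 were at least 4-fold lower at the end and none 4-fold higher (3.11% and 4.72% of all genes). Of 18 cell cycle genes 10 stayed within 2-fold, a share near the 56.1% of all genes. At E11.5, 15 of the 18 were lower than at E8.75 and 3 higher, with a median change of -0.70 (-0.01 over all genes). Among the 3 higher, Ccnd1, a G1 cyclin, had levels of 2.39, 4.54, 3.95 and 4.60, and Ccnd2 had 2.08, 3.09, 3.25 and 4.04.

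Notch and guidance genes included rises and falls. Of 15 Notch genes, 1 was at least 2-fold higher and 5 were lower in the first step (9.79% and 9.03% of all genes). Notch3, a receptor, was a steady rise with levels of 0.09, 1.12, 1.69 and 2.57. Dll1, a ligand, was a steady fall with 0.07, -1.79 and -3.56 and no signal well above background at E11.5. Sema3c and Sema3d, secreted semaphorins, were steady rises with levels of -2.39, -0.74, 1.32 and 2.24, and of -2.34, -1.34, 0.11 and 0.62. Sema3a, another semaphorin, peaked at E9.5 with 0.80, 3.11, 1.52 and -0.08. Slit2, a ligand of the Robo receptors that positions the bud, had levels of -1.48, 0.85, 1.43 and 1.93. Of the 24 guidance genes measured, 9 were at least 2-fold higher and 3 lower in the first step (9.79% and 9.03% of all genes).

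Dips at E9.5 included genes of glycolysis and low oxygen. Ddit4, a stress-induced inhibitor of mTOR, had levels of 5.05, 2.66, 4.20 and 4.95. Pdk1, a kinase that limits pyruvate oxidation, had 0.60, -0.73, -0.11 and 0.43. Of 18 glycolysis and hypoxia genes, 7 were at least 2-fold lower in the first step and none higher (9.03% and 9.79% of all genes). The median of that step was -0.88. Bnip3 and Pdk1, 2 of the 18, were called dips at E9.5 (1.52% of all genes). Ldha, Pgk1, Aldoa and Slc2a1 were 2.30-, 2.37-, 2.23- and 2.12-fold lower at E9.5 than at E8.75. Ddit4 and Pdk1 were also low in E9.5 rostral duct, at 2.42 and -2.08. At E11.5, 16 of the 18 were lower than at E8.75 and 2 higher, with a median change of -0.43. Vegfa, a target of the same response and 1 of those 2, was highest in the bud at 3.26. Galnt18, Acy3, Axl and Macrod1 led this class by size. Galnt18, a glycosyltransferase, had levels of -0.09, -3.85, -0.28 and 0.26.

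Dips at E10.5 included vascular genes. Cd93, an endothelial receptor, had levels of 3.39, -1.14, -2.93 and 0.22, and Icam2, an endothelial adhesion molecule, had 1.38, -0.22, -2.98 and -0.03. Of the 17 endothelial markers, 3 (Cdh5, Emcn and Icam2) had this shape (1.8% of all genes). Cd38, an ectoenzyme, had levels of 3.03, 1.24, -0.97 and 1.25, and Sparcl1, a matrix protein, had 0.73, -1.02, -3.43 and -0.14.

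Peaks at E9.5 were led by Gsn, the actin-severing protein gelsolin, with levels of -3.22, 1.33 and 0.27 and no signal well above background at E11.5. Angpt2, a vascular growth factor, had levels of -2.17, 1.99, -1.26 and -2.56. Spon1, an extracellular matrix protein, had 0.17, 4.10, 0.13 and -1.16, though its second probe showed a much smaller peak. Of 13 blood markers, 4 were at least 2-fold higher and 4 lower in the first step (9.79% and 9.03% of all genes), with a median of -0.14. Hbb-y, an embryonic globin, had levels of -0.57, 4.27, -3.64 and 2.43, and the blood list had summed signals of 6.28, 36.1, 2.03 and 10.9. The 4 globin genes met both the peak and the dip rule and were counted in neither.

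Peaks at E10.5 were led by genes seen on 1 array only. Of the 8 largest, Olfr915, Vmn1r49, Vmn2r99, Olfr809 and Saxo1 were not well above background on any other duct array. Smell and pheromone receptor genes made up 37 of these peaks, 6.92% of the 535 measured, against 3.89% of all genes. Only 41.7% of those 535 were well above background on the E10.5 caudal array, against 61.5% to 70.1% on the other 3. Neuronal genes shared the shape. Nefl, a neurofilament chain, had levels of 1.34, 1.33, 3.49 and -1.36, and Tubb3, a neuronal tubulin, had 2.80, 3.17, 4.33 and 2.66. Of 15 neural markers 5 peaked at E10.5 (3.89% of all genes), and the list summed to 37.9, 52.5, 67.1 and 38.5 over the 4 arrays. It summed to 273 in E9.5 rostral duct and 48.9 in E10.5 rostral duct. Slit3, a guidance ligand, shared the shape with levels of -2.82, -0.86, 0.15 and -2.12, and its relation to the neural signal was not tested.

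The middle step could be set against the rostral arrays of the same days, which the profiles did not use. Of the 2292 genes at least 2-fold higher in caudal duct at E10.5 than at E9.5, 46.1% were also higher in rostral duct (40.8% of all genes) and 18.4% by at least 2-fold (5.78% of all genes). Of the 1280 genes 2-fold lower, 63.2% were also lower (50.5% of all) and 25.1% by at least 2-fold (7.2% of all). Among genes that reached a level of 0 the shares were larger, 68.4% of 440 (47.2% of all such genes were higher) and 75.1% of 493 (52.3% were lower). Tfcp2l1, Cldn8, Calb1, Wnt9b and Cdh16 were all higher in rostral duct too, by 12.1-, 13.8-, 9.47-, 4.35- and 14.1-fold. Samd5 and Sema3d, by contrast, were lower there by 2.94- and 3.03-fold while they were higher in caudal duct.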

How the data were processed

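Feature Extraction 10.7.3.1 made the deposited intensity values, per the file headers, as 1-colour Cy3 signals after background subtraction. RNA (10 ng a sample) went through a NuGEN amplification before labelling, per the labels, which can compress or spread differences between dim genes. The deposited matrix of the authors holds log2 values centred on each probe; no source used here states its scale, and it followed the scanner values at r of at least 0.9999. Of 62976 spots on an array, 59305 were not controls. Outlier spots were left out and repeated spots averaged, which left 55663 probes and dropped 18.

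The level was log2 of the processed signal minus log2 of the 75th percentile of the array over non-control spots. A gene entered if a probe of it was well above background on 1 or more of the 4 arrays, with the brightest probe standing for a gene. Probes were named through RefSeq accessions (26755), symbols (3817) or their own names (25091). For shapes and folds, a probe not well above background was set to the higher of its own level and the dimmest level well above background on its array. The line over embryonic day was fitted with limma 3.58.1 in R 4.3.3, adjusted by Benjamini-Hochberg at 0.05, and tested on simulated data; it has 2 residual degrees of freedom. The number of arrays limits the precision.

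Up to 8 genes per shape were named by size, among genes with a highest level of at least 0, and up to 4 per gene list. Further members of the 18 gene lists and 10 marker lists were named after their values were seen. Of 430 list genes, 411 were measured. The members and lists were chosen with earlier results of these data known. Alternatives were quantile normalization, normexp with an offset of 50, the deposited matrix, other probe, detection and step rules, and the slide row as a block.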

Additional observations from a re-analysis of the deposited data

Results flagged for a closer look

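For 12 named genes the step from E9.5 to E10.5 went one way by at least 2-fold in caudal duct and the other way by at least 2-fold in rostral duct. The difference was not tested, since each is 1 array against 1 array.

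Neuronal genes were higher in caudal duct and lower in rostral duct at E10.5. The caudal minus rostral difference of the step (log2) was 8.92 for Stmn2 (3.32 in caudal and -5.60 in rostral duct), 6.58 for Nefl, 6.24 for Nefm and 4.69 for Tubb3. Slit3 had a difference of 4.22 and Minar2 one of 6.34, in the same direction. E9.5 rostral duct held the highest neural sum of the 6 duct arrays, 273.

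Samd5 and Sema3d, both steady rises, differed by 3.85 (2.30 in caudal and -1.56 in rostral duct) and 3.05 (1.45 and -1.60). The opposite direction was found for Gsn at -2.20, Gulo at -6.15, Foxa3 at -4.46 and Crym at -4.22, which were lower in caudal duct and higher in rostral duct at E10.5.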

How the results depend on the processing

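Counts by shape moved with the settings. The 147 steady rises became 64 under normexp, 314 with steps of at least 0.25, 22 with steps of at least 1 and 95 among genes that reach a level of 0. The 87 steady falls became 39, 173 and 15 under normexp and the looser and stricter step, and 142 with no floor on dim probes. The 1810 transient peaks became 567 under normexp, 871 among genes well above background on all 4 arrays, 4394 and 430 with limits of 0.5 and 2, and 329 at a level of 0. The 934 transient dips became 306 under normexp, 1812 with no floor, 1661 with rostral arrays at E9.5 and E10.5, 3535 and 98 with limits of 0.5 and 2, and 432 at a level of 0. Step counts under normexp were 1084 higher and 1193 lower, 617 and 416, and 882 and 884 in the 3 steps; with no floor the second step had 2268 lower and the third 3277 higher. Under quantile normalization 52.1% of caudal-higher genes were also higher in rostral duct. The level limit, the step counts and that value were alternatives chosen after seeing the data.

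The line called 0 genes in every setting, and in each fit that left out 1 array (0 to 0). Its lowest adjusted p ran from 0.0747 with an intensity trend to nearly 1 with the slide row as a block. Of 450 named or listed genes, none that passed its limit in the reported setting changed sign under 5 other settings. Another 23 under their limit did, and 1 of them, Sp8, went from 0.38 to -1.58 with the mean over probes, past the limit the other way. The change no longer passed its limit for 64 under normexp, 19 with the mean over probes, 13 under quantile normalization, 4 in the deposited matrix and 0 with no floor. The cause was not tested. No paired analysis was possible because each group has 1 array. Dim probes are the least certain, and the E10.5 caudal array detects fewest.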
